A study of Mus musculus with 202 samples.

Results

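The oocytes described here are second-generation (F2) eggs of 2 mouse lineages, 1 founded by androgen exposure and 1 founded by a rich diet. Each egg had reached metaphase II (MII), where it waits for fertilisation, and its polyadenylated RNA was sequenced on its own with Smart-seq2, a full-length method for single cells. In the androgen lineage (CD+DHT) the F0 female had received a control diet and dihydrotestosterone. In the diet lineage (HFHS+Veh) she had received a diet high in fat and sugar and vehicle. All animals were C57Bl/6J, and the sources used here give no age for the F2 animals. The lineages differed in both the diet and the hormone given to F0, so neither alone can be told apart as the source of a difference between them.

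Oocytes were taken by their titles and kept where 4000 genes or more had a count and gene counts reached 100000. All 25 of 25 CD+DHT and 20 of 20 HFHS+Veh oocytes passed, which made 45 oocytes of the 202 in the series. The animal was read from the number before the point in each title, as no label names it. It gave 5 CD+DHT animals (6, 7, 8, 9 and 17) and 4 HFHS+Veh animals (4, 5, 10 and 19), each with 5 oocytes. The animal was the replicate, since oocytes of 1 animal share their source. If the numbers mark something else, p-values measure only the spread between these sets of oocytes, which may be technical. Another 16 of 20 oocytes from 4 F2 animals with control diet and vehicle (CD+Veh; animals 2, 3, 13 and 14) lent their spread to the fit and are given beside the results, but entered no comparison. The characteristics of all 5 oocytes of HFHS+Veh animal 10 and of 3 oocytes of animal 5 named F3 instead of F2. Where the generation is taken from the characteristics below, these oocytes leave and HFHS+Veh oocytes titled F3 but labelled F2 enter.

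An MII oocyte transcribes little and lives on RNA stored while it grew in the follicle. That store holds the egg coat glycoproteins, the factors of meiotic arrest, and the maternal proteins that carry the embryo until its own genome is switched on. Dihydrotestosterone is an androgen that is not converted to oestrogen. Polycystic ovary syndrome, named in the title of the series, joins androgen excess with disturbed ovulation and metabolism. The comparison of these lineages asks how far their eggs differ after an androgen as against a dietary start.

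Gene counts per oocyte ran from 348855 to 13378950 in CD+DHT and from 424872 to 11938267 in HFHS+Veh. Animal medians of genes with a count were 11803, 10507, 7956, 7771 and 9182 in CD+DHT animals 6, 7, 8, 9 and 17. In HFHS+Veh animals 4, 5, 10 and 19 they were 11347, 11460, 8447 and 10749. The mean was 9444 ± 1716 against 10501 ± 1404 genes (SD over animals; exact two-sided permutation p = 0.333, adjusted over 10 library measures 0.921). With 5 against 4 animals this test cannot go below p = 0.0159. CD+DHT animals 8 and 9 and HFHS+Veh animal 10 stood apart from the other 6: they had the fewest genes with a count and lay at the same end of the first principal component, which held 45.7% of the variance between the 9 animals. Results are therefore also given without these 3 animals. One HFHS+Veh oocyte, oocyte 2 of animal 4, had 424872 gene counts, 5624 genes and 3.46% spike-in RNA, and was the 1 kept oocyte that had no column in the authors' normalised tables.

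The libraries carried the RNA of oocytes. All 16 oocyte markers were tested, and their summed level, as the median over an animal's oocytes, lay between 24279 and 45907 CPM (counts scaled to a common library total) in CD+DHT and between 19581 and 37269 CPM in HFHS+Veh. The somatic cells around the egg were sought by cumulus and granulosa markers, which summed to 602 to 1093 CPM against 539 to 1104 CPM (exact permutation p = 0.921). Of those 34 markers 22 were tested and 3 (Ereg, Areg and Pgr) had no count in any of the 45 oocytes. The most abundant was Serpine2, a protease inhibitor at 693 ± 160.3 against 674 ± 151 CPM in summed counts. It had a count in all 25 and all 20 oocytes and made up most of the sum. The sum and its p thus say little of the other markers. Spp1, osteopontin, varied far more, at 127, 365, 4.06, 906 and 101 CPM in CD+DHT animals 6, 7, 8, 9 and 17 and 48.9, 512, 1.78 and 33.5 CPM in HFHS+Veh animals 4, 5, 10 and 19 (log2 fold 1.01, 95% interval -1.95 to 3.97). It was highest in CD+DHT animal 9 and HFHS+Veh animal 5, and its part in other differences was not tested. Gja1 also ranged widely between animals, over 0 to 81.1 against 0.0811 to 65.6 CPM, as did Hsd3b1, over 0 to 38.5 against 0 to 70.2 CPM. Cyp19a1 was steadier, at 61.8 to 104 against 67.1 to 105 CPM. Also at 0 in every oocyte were Cyp17a1 and Thy1, 2 of 10 theca and stroma markers. So were 4 of the 7 red blood cell markers counted (Hba-a1, Hba-a2, Hbb-b1 and Slc4a1) and Pax8, 1 of 9 for oviduct epithelium. The other markers of these lists had a count in at least 1 oocyte. Summed levels reached at most 13.38 CPM for theca and stroma, 12.9 CPM for immune cells and 3.89 CPM for red blood cells in any animal, as medians over its oocytes. For endothelial cells the highest was 119 CPM, with Pecam1 the 1 of its 6 markers above a mean of 10 CPM, and for oviduct epithelium 19.26 CPM. Means over oocytes, closer to the summed counts tested, were higher in HFHS+Veh animal 5, at 17.01, 8.60 and 42.2 CPM for theca and stroma, red blood cells and oviduct epithelium. Single oocytes of that animal reached 45.7, 31.7 and 135 CPM. No library measure differed between the lineages by the exact permutation test (smallest p = 0.175, for theca and stroma markers; every adjusted p = 0.921).

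No gene was called different between the lineages. By edgeR's quasi-likelihood test on counts summed per animal, 0 of 11962 genes (0%) passed a Benjamini-Hochberg adjusted p under 0.05, and the smallest adjusted p was 0.99998. At an unadjusted p under 0.05 there were 55 genes higher in CD+DHT (0.46% of those tested) and 70 lower (0.585%), 1.04% in all. Scaled by library totals alone in place of TMM, that split was 27 higher and 57 lower. Evenly spread p-values would put 598 genes under 0.05, against 125 in the edgeR fit. The p-values of this fit thus ran high, for a reason that was not tested, and 0 calls do not show that the lineages were alike. DESeq2 called 1 gene and had 174 at an unadjusted p under 0.05, and limma-voom called 0 and had 166. Every CD+DHT animal lay above every HFHS+Veh animal for 31 genes (0.259%), and every one below for 54 (0.451%). Without CD+DHT animals 8 and 9 and HFHS+Veh animal 10, edgeR again called 0 genes, with 77 higher and 84 lower at an unadjusted p under 0.05.

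The size of difference that these animals could resolve depended on the level of the gene. For the 5905 genes that averaged 10 CPM or more over the 9 animals, the median absolute log2 fold was 0.14 and the median standard error 0.27. For 4703 of them (79.6%) the unadjusted 95% interval of the fold lay wholly within a log2 fold of 1 in either direction, so a doubling or halving fell outside their intervals. The middle 95% of their fitted log2 folds ran from -0.47 to 0.48. Genes under 10 CPM scattered more widely, as the plot of fold against level shows.

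**Figure D1:**
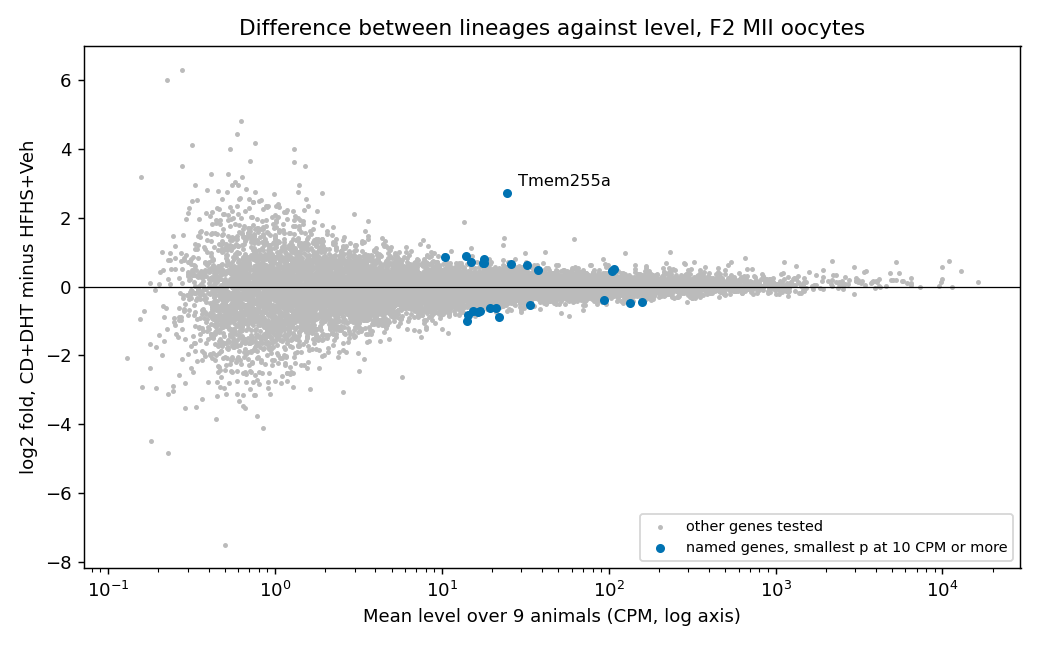
Each point is 1 of the 11962 genes tested, with its mean level over the 9 animals (CPM, log axis) against its fitted log2 fold, CD+DHT minus HFHS+Veh. Blue points are the 24 named genes; Tmem255a lies apart at 2.71, and folds of genes under 1 CPM spread the most.

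Since no gene passed, the 12 lowest p-values on each side among genes at 10 CPM or more are described; none of these 24 passed (edgeR adjusted p = 0.99998 for each). Values are TMM-scaled CPM of each animal's summed counts, in the order of animals 6, 7, 8, 9 and 17 for CD+DHT and 4, 5, 10 and 19 for HFHS+Veh. Standard errors and intervals are those of the edgeR fit. Positions are on GRCm38 (mm10). Whether counting used strand is unknown here, so reads of genes that share exon sequence cannot be told apart.

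Tmem255a, which encodes a transmembrane protein, had the smallest p and the widest difference of the 24 (chromosome X, 38196573 to 38252439). It stood at 68.3, 92.0, 15.1, 10.02 and 12.4 CPM in CD+DHT and at 7.89, 5.63, 5.998 and 4.76 CPM in HFHS+Veh. All 5 CD+DHT animals lay above all 4 HFHS+Veh animals, and 2 of them, 6 and 7, were far above the other 3 (log2 fold 2.71 ± 0.60 (SE), 95% interval 1.45 to 3.97, edgeR p = 0.000326). In those 2 animals every oocyte was high: the level ran from 55.7 to 83.1 CPM over the 5 oocytes of animal 6 and from 48.7 to 125 CPM over those of animal 7 (before TMM scaling). In HFHS+Veh the highest oocyte of animal 4 reached 87.1 CPM, while that animal's median was 5.08 CPM. That was oocyte 2, the library of 424872 gene counts and 3.46% spike-in RNA described above. CD+Veh animals 2, 3, 13 and 14 stood at 8.31, 7.04, 10.25 and 8.08 CPM, across the gap between the lowest CD+DHT and the highest HFHS+Veh animal. It was the 1 gene that DESeq2 called (log2 fold 2.70, adjusted p = 0.00533), and on oocyte means of log2(CPM + 1) its difference was 1.49. Its exons overlap those of Zbtb33 on the other strand, which was at 25.62 ± 4.52 against 23.7 ± 8.07 CPM (SD over animals; log2 fold 0.12, 95% interval -0.43 to 0.66).

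The next 2 genes higher in CD+DHT encode signalling and scaffold proteins. Btk, a tyrosine kinase known from B cell signalling (chromosome X, 134542336 to 134583570), was at 28.1, 18.01, 22.07, 15.6 and 26.32 CPM in CD+DHT and 10.9, 11.5, 10.7 and 16.99 CPM in HFHS+Veh. Only HFHS+Veh animal 19 reached into the CD+DHT range (log2 fold 0.81 ± 0.26 (SE), edgeR p = 0.00629). Ppp1r9a, neurabin, which ties protein phosphatase 1 to actin (chromosome 6, 4902917 to 5165661), was at 21.3, 16.3, 21.02, 29.2 and 18.1 against 14.29, 9.77, 12.6 and 15.8 CPM. Its groups did not overlap, although CD+DHT animal 7 and HFHS+Veh animal 19 were nearly level (log2 fold 0.69 ± 0.25 (SE), edgeR p = 0.0133).

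Groups did not overlap for 3 of the 12 higher genes, beside 0.259% of all genes tested. The 12 were chosen by p in these same values, which favours groups that are apart, so this count is a description. Slc7a2, a carrier of cationic amino acids (chromosome 8, 40862396 to 40922308), was the other of them beside Tmem255a and Ppp1r9a. It was at 102, 102, 175, 138 and 100.1 CPM against 68.3, 86.7, 92.8 and 96.4 CPM (log2 fold 0.52 ± 0.23 (SE), edgeR p = 0.0344). CD+DHT animals 8 and 9 were the highest, and without them and HFHS+Veh animal 10 the log2 fold was 0.27. Cpne1, a copine that binds phospholipid in the presence of calcium (chromosome 2, 156071842 to 156111965), was the other higher gene near 100 CPM, at 107, 89.1, 133, 138 and 126 against 93.8, 82.3, 72.9 and 96.9 CPM (log2 fold 0.46 ± 0.17 (SE), edgeR p = 0.0183). Its CD+DHT animal 7 lay inside the HFHS+Veh range, and its exons overlap those of Rbm12 on the same strand.

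The other 7 higher genes had log2 folds between 0.49 and 0.89, with overlapping groups. Txndc17, a thioredoxin-like disulphide reductase, ranged over 32.7 to 52.3 CPM against 27.0 to 34.8 CPM, with a log2 fold of 0.49 that was 0.013 on oocyte means of log2(CPM + 1). Coq7, of ubiquinone synthesis, ranged over 12.6 to 30.4 against 11.5 to 16.2 CPM, and Sass6, which builds the centriole cartwheel, over 11.4 to 21.9 against 7.301 to 14.27 CPM. The keratin Krt10 and Ankrd66 lay at 23.2 to 46.9 against 16.1 to 23.2 CPM and at 12.9 to 24.8 against 5.53 to 16.7 CPM. Neto2, an auxiliary subunit of kainate receptors, was set by CD+DHT animal 8, at 27.1 CPM where the other 4 lay between 8.66 and 10.6 CPM. Without that animal its log2 fold was 0.40, against 0.85 with it. 1700010I14Rik ran from 27.5 to 45.5 CPM against 16.5 to 31.0 CPM.

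Among genes lower in CD+DHT, 7 of the 12 had groups that did not overlap, beside 0.451% of all genes tested. The 12 were chosen by p in these same values, which favours groups that are apart, so this count is a description. Usp24, a deubiquitinase (chromosome 4, 106316213 to 106441322), was at 14.9, 17.9, 20.1, 14.34 and 17.51 CPM in CD+DHT and 25.35, 22.37, 28.1 and 28.8 CPM in HFHS+Veh (log2 fold -0.62 ± 0.22 (SE), edgeR p = 0.0104). Fmnl3, a formin that elongates actin filaments (chromosome 15, 99317225 to 99370482), was at 10.09, 9.06, 10.31, 5.81 and 13.97 against 21.3, 21.02, 18.2 and 18.1 CPM. It had the lowest fitted fold of these 12, and all CD+DHT animals were below 18.1 CPM, the lowest HFHS+Veh animal (log2 fold -0.99 ± 0.35 (SE), 95% interval -1.72 to -0.26, edgeR p = 0.0113). CD+Veh did not separate from either: it spread over 16.5, 38.9, 11.6 and 14.06 CPM.

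Cds2, which makes CDP-diacylglycerol for phosphoinositide synthesis (chromosome 2, 132263148 to 132312050), was at 16.3, 16.6, 14.12, 7.42 and 12.004 against 22.51, 24.3, 19.8 and 20.4 CPM (log2 fold -0.71 ± 0.25 (SE), edgeR p = 0.0114). CD+DHT animal 9 was the lowest by a wide gap, and the 4 CD+Veh animals (22.9, 24.4, 21.8 and 19.02 CPM) lay with HFHS+Veh. Ext2, a subunit of the enzyme that extends heparan sulphate chains (chromosome 2, 93661028 to 93822568), was at 29.5, 34.6, 29.3, 22.504 and 24.8 against 43.4, 46.5, 36.9 and 35.7 CPM (log2 fold -0.53 ± 0.19 (SE), edgeR p = 0.0134). Here CD+DHT animal 7 and HFHS+Veh animal 19 differed by about 1 CPM, and CD+Veh lay inside the CD+DHT range at 29.6 to 33.4 CPM.

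The other genes of the 12 lower ones whose groups were apart were B3gnt2, which builds N-acetyllactosamine chains (68.0 to 94.9 against 96.3 to 124 CPM), Cdk5rap1, which modifies mitochondrial transfer RNA (12.1 to 17.37 against 20.3 to 27.9 CPM), and Fam193a (83.7 to 166 against 170.0 to 208 CPM). The log2 fold of Cdk5rap1, -0.63, was -0.15 without the oocytes of conflicting label and turned to 0.25 with the generation from the characteristics. Overlapping were Uba1, the E1 enzyme that starts ubiquitin transfer (chromosome X, 20658326 to 20683179; 93.0 to 154 against 124 to 182 CPM), and Srp68, of the signal recognition particle (7.17 to 15.1 against 12.99 to 27.9 CPM). Stk11, the LKB1 kinase that activates AMPK, was at 11.8, 16.1, 8.03, 8.28 and 9.36 against 29.5, 20.9, 9.81 and 15.7 CPM, with HFHS+Veh animals 10 and 19 inside the CD+DHT range (log2 fold -0.82 ± 0.34 (SE), edgeR p = 0.0288). Without HFHS+Veh animal 4, its highest, the log2 fold of Stk11 was -0.53. Anks4b, a scaffold of brush border microvilli, was at 24.2, 17.02, 54.1 and 22.08 CPM in HFHS+Veh, with animal 10 far above the other 3, and at 11.5 to 20.6 CPM in CD+DHT. Without animal 10 its log2 fold was -0.41, against -0.87 with it. Dnah11, a dynein heavy chain of cilia, was at 23.3, 13.35, 24.7 and 23.1 CPM in HFHS+Veh, where animal 5 was level with CD+DHT (10.39 to 15.7 CPM).

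**Figure D2:**
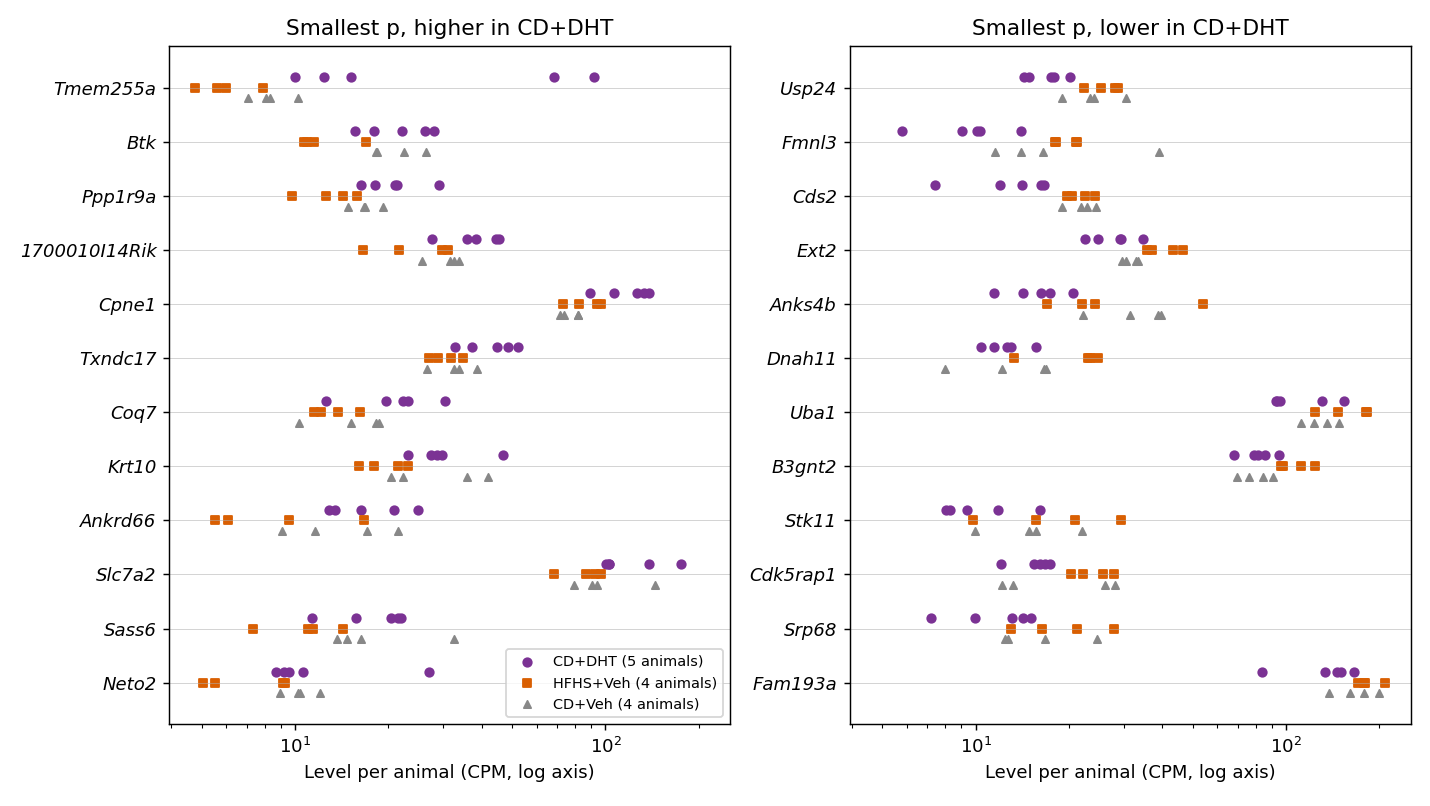
Level of each named gene in every animal (CPM, log axis): circles are the 5 CD+DHT animals, squares the 4 HFHS+Veh animals and triangles the 4 CD+Veh animals. Circles and squares are apart for 3 of the 12 higher genes and 7 of the 12 lower ones, and the triangles mostly lie across both.

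The F2 oocytes of CD+Veh, the lineage with neither treatment, stood mostly between the other lineages for these genes. The CD+Veh mean lay between the CD+DHT and HFHS+Veh means for 18 of the 24, 10 of the 12 higher and 8 of the 12 lower. The genes were chosen by p for a gap between CD+DHT and HFHS+Veh, which favours a CD+Veh mean that lies between them. The spread of CD+Veh also entered that p. No share over all genes is given beside this count, so it is a description. Without CD+DHT animals 8 and 9 and HFHS+Veh animal 10 all 24 kept the sign of their fold. Beside Slc7a2, Neto2 and Anks4b, it moved by over 1.5 times for Cpne1 (to 0.23), Krt10 (to 0.42) and Ankrd66 (to 0.55). Of the 24 genes 9 share exon sequence with another annotated gene: Tmem255a, Cpne1, Krt10, Slc7a2, Sass6, Neto2, Dnah11, B3gnt2 and Stk11.

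The same lineages were also sampled in F1 and F3. In those generations at least 1 group named no animal, so counts were pooled over oocytes as 1 sample a group with no test. The characteristics of the F1 HFHS+Veh oocytes also named the other hormone treatment. Of the 24 genes, 11 had the F2 sign in F1 and 12 in F3, beside 46.1% and 43.9% of all genes at 10 CPM or more. Tmem255a was at 11.5 against 11.7 CPM in F1 (exact Poisson 95% intervals 9.27 to 14.14 and 10.7 to 12.8, counting error only). In F3 it was at 27.3 against 10.7 CPM (25.9 to 28.8 and 8.51 to 13.28). Ppp1r9a and 1700010I14Rik were higher in CD+DHT in both (log2 folds 0.30 and 1.83, and 0.18 and 0.56), as was Krt10 (0.10 and 0.077). Of the lower genes Anks4b kept its sign in both (-0.10 and -0.72), while Usp24, Ext2, Uba1 and Fam193a were higher in CD+DHT in both.

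The most abundant transcripts of the egg are given by their level per length. On the authors' RPKM scale, which divides by gene length, Pttg1, the securin that guards chromatid separation, was first, with a mean over animals of 12828 ± 3073 RPKM in CD+DHT and 12094 ± 2532 in HFHS+Veh (SD, n = 5 and 4). H1foo, the oocyte linker histone, was at 8351 ± 2240.5 against 7796 ± 2675 RPKM, and Tcl1, a cofactor of AKT, at 7275 ± 2255 against 7811 ± 1584 RPKM. Both pairs differed by less than the spread between animals. Bcl2l10, an antiapoptotic protein of the egg, was at 6919 ± 1745 against 7328 ± 1545 RPKM, with a log2 fold of 0.021 in counts (95% interval -0.49 to 0.53). Others of the 15 most abundant had means further apart with wide ranges: Wtap was at 6066 against 3873 RPKM, over 2233 to 12680.5 and 1862 to 7853 in single animals. Pfdn4, of the prefoldin chaperone, was at 3777 against 2917 RPKM (log2 fold in counts 0.34, 95% interval -0.43 to 1.10).

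Among the 16 oocyte markers none had an unadjusted p under 0.05. The growth factors Gdf9 and Bmp15, with which the egg directs its cumulus cells, had log2 folds of 0.12 (95% interval -0.56 to 0.79) and 0.23 (95% interval -0.17 to 0.63). The fold of Bmp15 turned to -0.25 with the generation taken from the characteristics. The egg coat genes Zp1, Zp2 and Zp3 had -0.10, -0.075 and -0.078. Mos, the kinase that keeps the egg at MII, had 0.14 (95% interval -0.41 to 0.70), and Fbxo43, the Emi2 inhibitor of the anaphase-promoting complex, -0.0098 (95% interval -0.34 to 0.32). The widest was Nlrp5, the maternal effect protein Mater, at 220.4 ± 52.7 against 275 ± 195 CPM (SD over animals; log2 fold -0.32, 95% interval -1.01 to 0.37). Its HFHS+Veh animals were at 177, 150.1, 566 and 208 CPM, and without animal 10 the log2 fold turned to 0.29.

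The 26 gene groups examined held 994 tested entries, some genes being in more than 1 group. None was called, and 9 (0.905%) had an unadjusted p under 0.05, near the 1.04% of all genes tested. The low-p members named for each group are thus no more frequent than over all genes, and are given as values. Group medians of the log2 fold ran from -0.23 to 0.045, beside -0.016 over all genes tested.

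Groups that build and stock the egg had medians near 0. The subcortical maternal complex and maternal effect genes, proteins laid down for the early embryo, had a median log2 fold of -0.0084, with 19 higher and 22 lower of 41 tested. For 34 of 41 the interval lay within a log2 fold of 1 in either direction. Their smallest p was that of the splicing factor Bcas2, at 199, 185, 268, 465 and 221 against 168, 156, 209 and 209 CPM (edgeR p = 0.104), where CD+DHT animal 9 was the highest. Zona pellucida and sperm contact genes had a median log2 fold of 0.027 over 10 tested, a list that also counts the kinase Wee2. The egg integrin Itga6 had the smallest p there, at 587 ± 88.2 against 674 ± 93.3 CPM (edgeR p = 0.262).

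Oocyte secreted factors and Kit had a median log2 fold of -0.042 (7 higher and 7 lower of 14 tested), and oocyte transcription factors 0.0023 (11 higher and 11 lower of 22 tested). The homeobox genes Obox2 and Obox5, the most abundant of the latter in counts, were at 2804 ± 246 against 2650.0 ± 539 CPM and at 2567 ± 166 against 2421 ± 232 CPM. Proteins that store or degrade maternal messenger RNA had a median log2 fold of -0.0084 (21 higher and 26 lower of 47 tested). Cnot6, a deadenylase, had their smallest p, at 48.9, 63.5, 66.5, 51.3 and 45.0 against 71.7, 67.2, 79.9 and 63.2 CPM (edgeR p = 0.0706). Small RNA machinery had a median log2 fold of -0.16 (10 higher and 18 lower of 28 tested), with Tdrkh, of the piRNA pathway, at 14.43 ± 3.60 against 18.8 ± 1.53 CPM (edgeR p = 0.143).

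DNA methylation machinery had a median log2 fold of -0.10 (7 higher and 16 lower of 23 tested). Its smallest p was that of Dnmt3l, the cofactor that guides methylation of imprints in the growing oocyte, at 28.1, 17.31, 25.73, 26.09 and 18.96 against 18.5, 18.5, 15.1 and 15.7 CPM (edgeR p = 0.0769). Its log2 fold of 0.45 became -0.051 on oocyte means of log2(CPM + 1). Histone modifiers and remodellers had a median log2 fold of -0.12 (18 higher and 31 lower of 49 tested). Kdm5b, a demethylase of histone H3 lysine 4, was at 7.61, 10.6, 3.41, 1.61 and 4.74 CPM in CD+DHT and at 9.95, 10.9, 13.37 and 10.32 CPM in HFHS+Veh (edgeR p = 0.0303). CD+DHT animals 8 and 9 were the lowest, and only animal 7 reached the HFHS+Veh range. Its CD+Veh animals lay with HFHS+Veh, at 10.39 to 11.4 CPM. The log2 fold of -0.98 became -0.45 without CD+DHT animals 8 and 9 and HFHS+Veh animal 10.

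RNA m6A methylation, the methyl mark on adenosine in messenger RNA, had a median log2 fold of 0.017 (10 higher and 8 lower of 18 tested). Mettl14, a subunit of the writer complex, was at 4.22, 2.56, 0.812, 2.102 and 3.51 CPM against 5.84, 4.74, 14.9 and 5.01 CPM (log2 fold -1.51 ± 0.56 (SE), edgeR p = 0.0162). The groups did not overlap, but the level was low in both, and HFHS+Veh animal 10 was the highest. The log2 fold of Mettl14 was -0.97 without that animal and -0.60 without CD+DHT animals 8 and 9 as well. CD+Veh spread over both at 2.98 to 13.17 CPM. Imprinted genes had a median log2 fold of 0.0065 (14 higher and 14 lower of 28 tested). Their smallest p was that of Sgce, with 26 counts in CD+DHT, 16 of them in animal 7 and 8 in animal 9 and none in animal 17, and 0 in HFHS+Veh. Taking 3 counts over the group as the limit that 0 allows, the CD+DHT level of Sgce was 7.71 times that limit (edgeR p = 0.0151, not passing after adjustment). Without animal 7 it was 3.55 times the limit. These ratios allow no error on the CD+DHT counts and no spread between animals, so they are not a lower bound for the lineage. With Sgce set at the ratio of 7.71 the group's median stayed 0.0065.

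Genes of meiotic arrest and division also had medians near 0. MII arrest and cell cycle genes had a median log2 fold of 0.0031 (25 higher and 25 lower of 50 tested). Ccnb1, the cyclin B that drives metaphase, was at 901 ± 50.2 against 876 ± 65.9 CPM (log2 fold 0.041, 95% interval -0.28 to 0.37). Ube2c, the ubiquitin-conjugating enzyme of the anaphase-promoting complex, was at 59.2, 35.8, 48.5, 48.0 and 52.4 CPM against 29.0, 28.4, 27.2 and 49.0 CPM (edgeR p = 0.0414), with HFHS+Veh animal 19 inside the CD+DHT range. Its exons overlap those of Tnnc2. Spindle, checkpoint and cohesin genes had a median log2 fold of -0.012 (22 higher and 28 lower of 50 tested). The kinetochore protein Spc24 had groups that were just apart, at 13.29, 15.9, 14.04, 18.2 and 11.9 CPM against 10.23, 9.63, 4.86 and 11.9 CPM (edgeR p = 0.0815).

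Nuclear-encoded oxidative phosphorylation had a median log2 fold of 0.041 (41 higher and 33 lower of 74 tested). Ndufa9, a subunit of complex I, was at 2.56, 6.33, 5.36, 5.44 and 2.80 CPM in CD+DHT and 0.556, 1.86, 0.811 and 0.918 CPM in HFHS+Veh (log2 fold 2.102 ± 0.56 (SE), edgeR p = 0.00169). The groups did not overlap, on 375 against 93 counts in all. In CD+DHT animal 9 all counts of Ndufa9 came from 1 of 5 oocytes (14.398 CPM before TMM scaling) and in animal 8 from 2 of 5, so the gap between groups rests there on single libraries. On oocyte means of log2(CPM + 1) the difference was 0.56. CD+Veh was at 3.89, 6.57, 2.65 and 4.13 CPM, above all of HFHS+Veh, and Ndufa9 overlaps 1700018A23Rik. Mitochondrial ribosomal proteins had a median log2 fold of 0.0061 (41 higher and 36 lower of 77 tested), where Mrpl30 was at 2.13, 4.59, 3.33, 2.60 and 2.80 against 4.84, 9.72, 9.08 and 3.09 CPM (edgeR p = 0.0218). The log2 fold of Mrpl30, -1.11, was -0.31 without the oocytes of conflicting label and -0.020 with the generation from the characteristics.

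Mitochondrial dynamics and upkeep had a median log2 fold of -0.012 (20 higher and 21 lower of 41 tested). Ppargc1a, the coactivator PGC-1 alpha of mitochondrial biogenesis, had its smallest p (edgeR p = 0.0444) on 6 counts in CD+DHT, all in animal 6, and 38 in HFHS+Veh, 27 of them in animal 10. These are too few counts for a fold. Oxidative stress and glutathione genes had a median log2 fold of 0.022 (20 higher and 16 lower of 36 tested). The peroxiredoxin Prdx1 was at 710.0 ± 53.4 against 607 ± 109 CPM.

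Metabolic and hormone groups are those closest to the treatments of F0. Insulin, PI3K and mTOR signalling had a median log2 fold of -0.065 (15 higher and 20 lower of 35 tested), with Stk11, given above, the 1 member at an unadjusted p under 0.05. Foxo1, a transcription factor held back by insulin signalling, was at 496 ± 102 against 573 ± 96.3 CPM (log2 fold -0.21, 95% interval -0.62 to 0.21). Glycolysis and glucose uptake had a median log2 fold of -0.22 (9 higher and 15 lower of 24 tested), which became 0.28 with the number of genes detected as a covariate. Its lactate dehydrogenase subunit Ldhb was at 744 ± 213 against 747 ± 204 CPM (log2 fold -0.0051, 95% interval -0.49 to 0.48). Cholesterol and fatty acid metabolism had a median log2 fold of -0.11 (21 higher and 32 lower of 53 tested).

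Androgen and steroid metabolism and receptors had a median log2 fold of -0.047 (13 higher and 17 lower of 30 tested), with no member at an unadjusted p under 0.05. The smallest p (edgeR p = 0.106) was that of Cyp11a1, the first enzyme of steroid synthesis and a marker of granulosa cells. Its 933 counts in HFHS+Veh were almost all in animal 5 (915), which also held the oocyte with the highest summed cumulus and granulosa markers (4851 CPM). Without animal 5 the log2 fold of Cyp11a1 turned from -2.63 to 2.79. Ncoa3, a coactivator of steroid receptors, and Fkbp5, a chaperone of those receptors, were at 1627 to 7217 against 1494 to 5746 CPM and at 149 to 304 against 173 to 326 CPM. Genes whose human counterparts lie close to loci for polycystic ovary syndrome showed a median log2 fold of -0.11 (7 higher and 15 lower of 22 tested). Thada, 1 of them, was at 13.21, 12.8, 7.22, 1.48 and 12.004 against 13.01, 8.98, 25.21 and 19.496 CPM (edgeR p = 0.1). In CD+DHT animal 9 it had a count in 1 of 5 oocytes. Its log2 fold of -0.82 was -0.14 without CD+DHT animals 8 and 9 and HFHS+Veh animal 10. With the generation from the characteristics it was -1.48.

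Protein upkeep and damage genes completed the groups. Cytosolic ribosomal proteins had the lowest median, -0.23 (14 higher and 35 lower of 49 tested), with an interval within a log2 fold of 1 for 14 of 49. Without HFHS+Veh animal 5 that median was 0.37, on the other side of 0. The proteasome had the highest, 0.045 (23 higher and 18 lower of 41 tested), with its abundant subunit Psma7 at 1722 ± 177 against 1666 ± 329 CPM. Heat shock and unfolded protein response genes had a median log2 fold of -0.10 (14 higher and 29 lower of 43 tested). Sdf2l1, a chaperone partner of the endoplasmic reticulum, was at 61.6, 63.3, 98.3, 88.0 and 56.2 CPM against 55.3, 37.9, 44.7 and 61.6 CPM (edgeR p = 0.0429), with overlapping groups. DNA damage and apoptosis had a median log2 fold of -0.037 (23 higher and 29 lower of 52 tested), and autophagy and lysosome -0.072 (15 higher and 22 lower of 37 tested).

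The most abundant members of several groups had intervals that held 0. Btg4, which triggers the clearance of maternal messenger RNA, was at 5602 ± 1263 CPM in CD+DHT and 4918 ± 983 CPM in HFHS+Veh (log2 fold 0.19, 95% interval -0.32 to 0.69). Dppa3, which protects maternal DNA methylation, was at 4199 ± 513 against 3866 ± 585 CPM, and Tet3, the oxidase of methylated cytosine, at 1423 ± 264 against 1518 ± 105 CPM. Their log2 folds were 0.12 (95% interval -0.46 to 0.70) and -0.094 (95% interval -0.48 to 0.30). The checkpoint kinase Bub1b had -0.078 (95% interval -0.47 to 0.32), and Wee2, the kinase that holds back the cyclin-dependent kinase in oocytes, 0.13 (95% interval -0.26 to 0.52).

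Of the metabolic groups, Hmgcs1, an enzyme of cholesterol synthesis, was at 569 ± 269 against 477 ± 280.1 CPM (log2 fold 0.25, 95% interval -0.56 to 1.07). Rheb, the activator of mTOR, was at 429 ± 129 against 348 ± 56.3 CPM (log2 fold 0.30, 95% interval -0.25 to 0.86). Pdha1, of the pyruvate dehydrogenase complex, had the smallest p of the glycolysis group (edgeR p = 0.228), at 17.15, 10.7, 12.98, 12.98 and 10.13 against 7.45, 11.1, 9.89 and 11.6 CPM. Its groups overlapped, and its log2 fold of 0.35 turned to -0.43 with the generation from the characteristics. The imprinted genes Mest and Igf2r, the latter the receptor that clears insulin-like growth factor 2, had log2 folds of -0.017 (95% interval -0.92 to 0.89) and 0.45 (95% interval -0.64 to 1.54). Among proteins of the mitochondrial inner membrane, Atp5b, a subunit of ATP synthase, had 0.11 (95% interval -0.38 to 0.61) and the calcium uniporter Mcu 0.19 (95% interval -0.51 to 0.89).

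**Figure D3:**
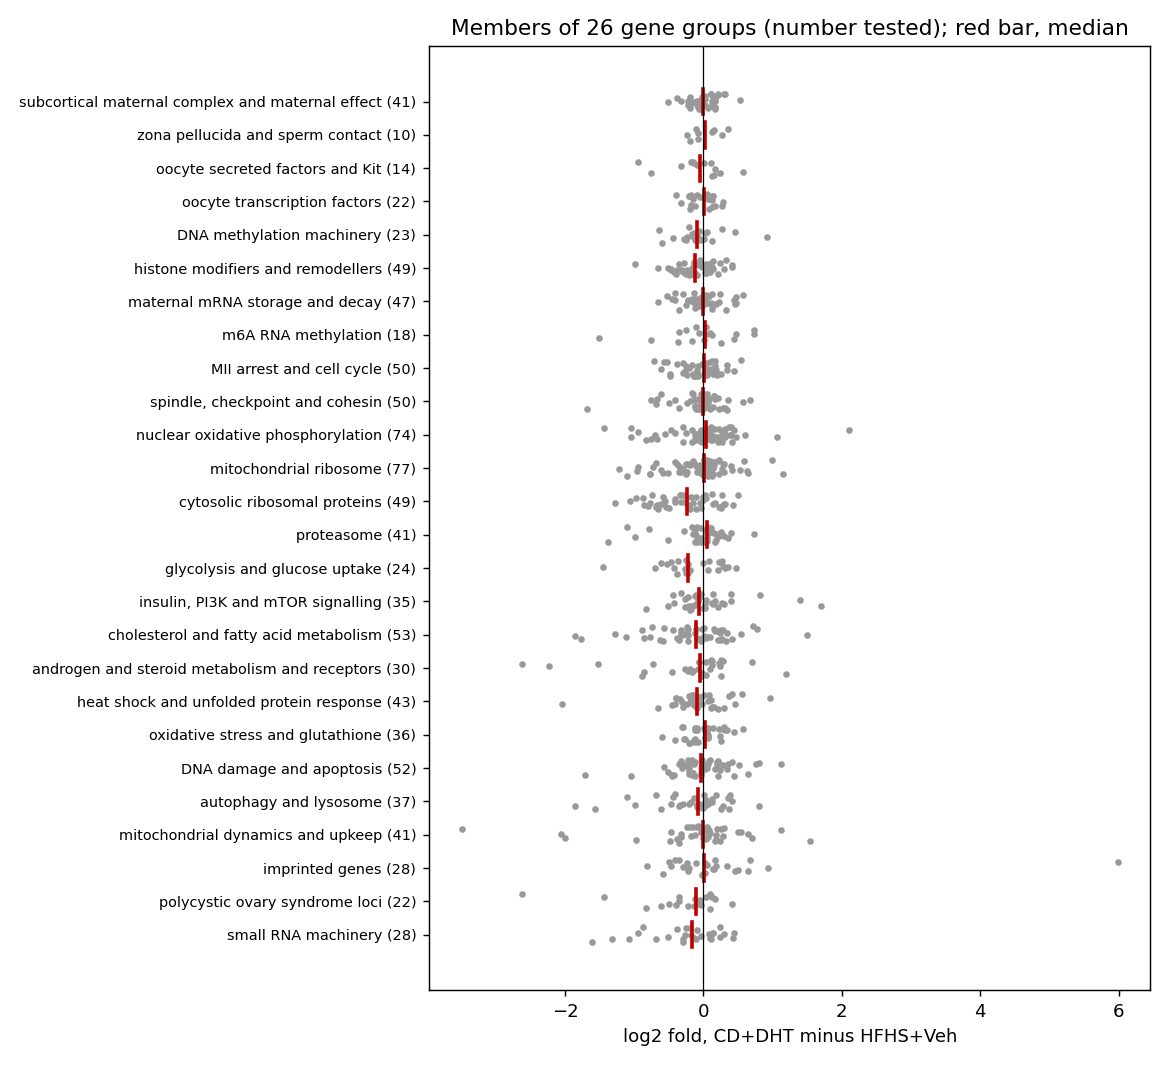
Fitted log2 fold, CD+DHT minus HFHS+Veh, of each tested member of the 26 gene groups (grey points, spread vertically for view; number tested in brackets), with the group median as a red bar. Medians lie between -0.23 and 0.045; the point near 6 among imprinted genes is Sgce, a fitted value for a gene with no count in HFHS+Veh.

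Differences between animals of 1 lineage were wider than those between lineages for a set of very abundant transcripts. These were chosen after their values were seen, so their spread is a description. Wtap, another subunit of the m6A writer complex, was at 4606, 6153, 18626, 33378 and 4134 CPM in CD+DHT and 3888, 3949, 18259 and 6183 CPM in HFHS+Veh. CD+DHT animals 8 and 9 and HFHS+Veh animal 10 were high, and the other 6 lay at 3888 to 6183 CPM (log2 fold between lineages 0.73, 95% interval -0.78 to 2.24). The same 3 animals were the highest for Jag1, a Notch ligand, at 4455, 4487, 14073, 29828 and 5588 against 2959.6, 4029.6, 19059.9 and 5311 CPM. They were also the highest for Paip1, a partner of poly(A)-binding protein, at 6426, 6438, 15202, 38859.5 and 6429 against 5058, 4344, 26071 and 7265 CPM.

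Insig1, which holds back sterol synthesis, was at 2183, 2602, 8487, 15961 and 2567 against 1688, 2059, 8942 and 2777 CPM. The m6A demethylase Alkbh5 was at 1104, 1141, 3704, 6576 and 750.5 against 666, 826, 3643 and 1277 CPM, and the histone demethylase Kdm6b at 2015, 2194, 4971, 8193 and 1800.0 against 1896, 1831, 5279 and 2496 CPM. In each of these 6 genes the 3 animals with the fewest genes detected were the 3 highest, and the part of detection in this was not tested. Gdf9 ran the other way: CD+DHT animal 9 (2994 CPM), animal 8 (4971 CPM) and HFHS+Veh animal 10 (2893 CPM) were its 3 lowest, the other 6 lying between 6634 and 8620.1 CPM. CD+Veh animals 13 and 14 were also above 2 and 3 for Wtap, at 2871, 1738, 11337 and 13352 CPM, so the level of Wtap was split within each of the 3 F2 groups.

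**Figure D4:**
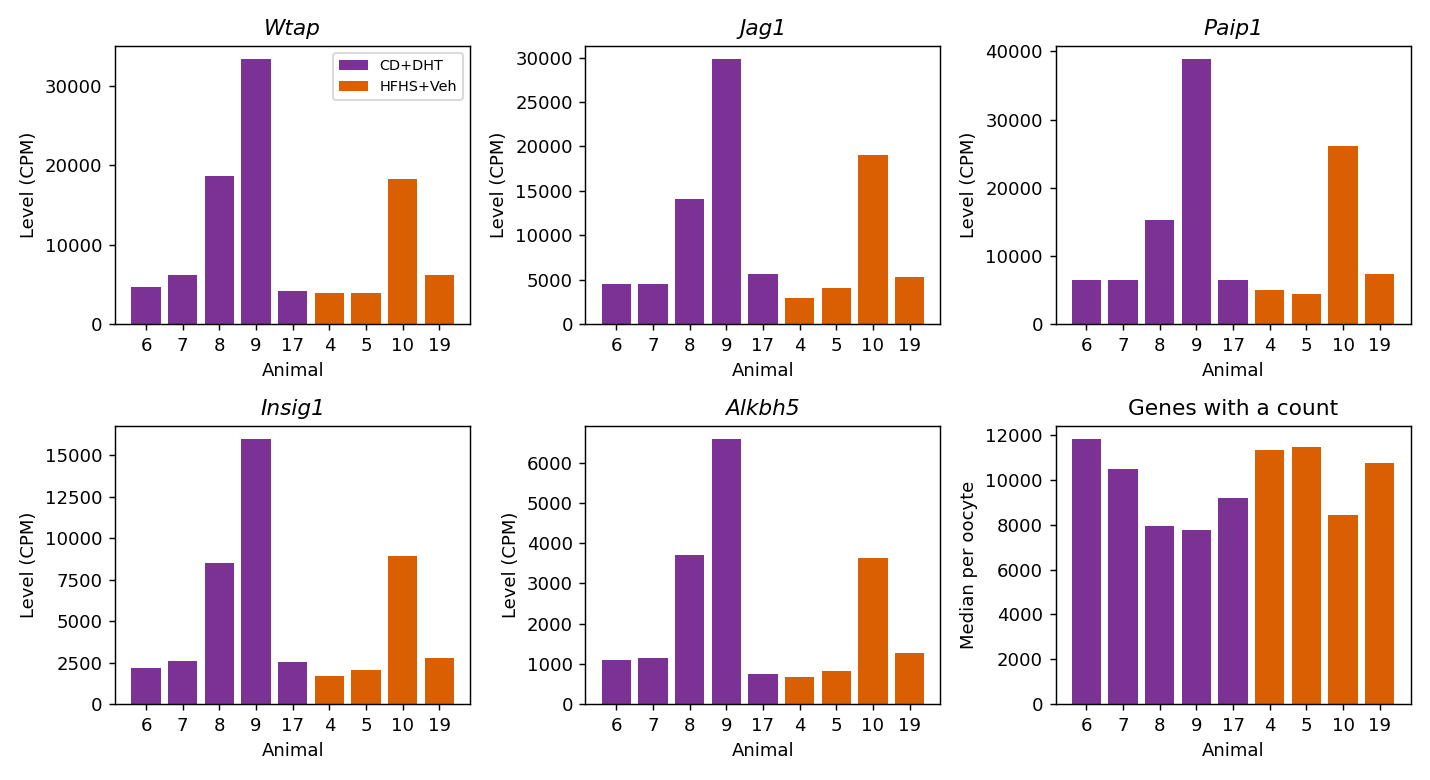
Level in each animal (CPM of summed counts, bars) of Wtap, Jag1, Paip1, Insig1 and Alkbh5, and the median number of genes with a count per oocyte; 1 bar is 1 animal of 5 oocytes. CD+DHT animals 8 and 9 and HFHS+Veh animal 10 are the highest in the first 5 panels and the lowest in the last.

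Over all genes most of the spread lay between oocytes of the same animal. For genes at 10 CPM or more the median SD between oocytes of 1 animal was 0.95 on the log2(CPM + 1) scale, and the median SD between animals of 1 lineage, beyond that expected from their oocytes, 0.29. Animals took a median 12.5% of that variance, and over 50% for 195 of 5905 genes (3.302%). The share was 78.9% for Alkbh5, 74.5% for Wtap and 64.3% for Insig1, and 50.6% for Tmem255a. Across genes, pairs of oocytes from 1 animal had a median Spearman correlation of 0.864 (90 pairs, sharing animal and lineage). Pairs from different animals had 0.8292 within a lineage (400 pairs) and 0.839 across lineages (500 pairs). The lineages differed in this: between animals the median was 0.823 within CD+DHT and 0.850 within HFHS+Veh, below and above that across lineages. Within animals it was 0.825 in CD+DHT and 0.883 in HFHS+Veh. These medians are a description, since pairs share oocytes.

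The label conflict touched HFHS+Veh alone. Leaving out the 8 oocytes whose characteristics named F3, which removed animal 10 and left 2 oocytes of animal 5, edgeR called 0 genes and found 213 higher and 250 lower in CD+DHT at an unadjusted p under 0.05. Taking the generation from the characteristics in place of the titles, it also called 0, with 255 higher and 177 lower. That fit also takes in HFHS+Veh oocytes titled F3, so its HFHS+Veh animals are not the same set. Tmem255a stood at a log2 fold of 2.72 and 2.45 in these fits, and did not pass in either (edgeR adjusted p = 0.973 and 0.99737). Beside Cdk5rap1, leaving these oocytes out moved the fold by over 1.5 times for Btk (to 0.51), Coq7 (0.44), Anks4b (-0.44) and B3gnt2 (-0.18) among the 24 genes. The generation from the characteristics did so for Btk (0.49), Txndc17 (0.85), Slc7a2 (0.21), Neto2 (0.28), Ext2 (-0.16) and Fam193a (-0.20), all with their sign kept.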

How the data were processed

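Single MII oocytes were profiled with Smart-seq2, per the labels' protocols. The authors deposited raw counts per gene symbol, RPKM values, and the natural log of 1 plus each count after scaling oocytes to 10000. The submitters' processing notes list STAR 2.4.2a, Seurat 2.0 and mm10. How genes were counted, with which annotation and strand setting, is not given in the sources used here. Of the deposited columns, 272 in the RPKM and natural log tables belong to other groups and were not used. Of 24582 lines, 92 spike-in lines and eGFP (0 counts) were left out, and repeated symbols were summed to 23995, of which 22643 matched GENCODE vM21 by name.

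Counts of kept oocytes were summed per animal. The 3 F2 groups entered 1 edgeR 4.0.16 quasi-likelihood fit (R 4.3.3, TMM, filterByExpr, Benjamini-Hochberg adjustment, threshold 0.05). Library measures were compared by exact permutation over animals (Python 3.11.15, scipy 1.17.1). No 2 libraries were identical (0 pairs), and chi-square per degree of freedom was at least 7.04 between oocytes of a group, so none was counted as a repeat. The fit was also run on counts simulated from its own mean levels and dispersions. Such counts cannot show why its p-values ran high, and no result is drawn from them here. Named genes were the 12 with the smallest p in each direction at a mean of at least 10 CPM, and from each group the member with the smallest p and the 2 with the highest CPM; Zbtb33, Serpine2, Spp1, Pfdn4 and the genes quoted from the marker lists were added after their values were seen. The members and lists were chosen with earlier results of these data known. Alternatives used DESeq2 1.42.0, limma 3.58.1, other scalings and filters, thinning to 300000 counts, and leaving out animals or oocytes. Without molecular identifiers, counting intervals and limits cover counting error only. Nothing in the labels says whether animals were collected in separate batches.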

Additional observations from a re-analysis of the deposited data

Results flagged for a closer look

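In 8 of 68 checks, each of 1 quantity in 1 lineage, the highest or lowest animal lay apart from the others by more than Dixon's 95% limit; chance flags about 1 in 20 groups. Among the named genes, Btk was 16.99 CPM in HFHS+Veh animal 19 and 10.7 to 11.5 CPM in the other 3. Dnah11 was 13.35 CPM in HFHS+Veh animal 5 and 23.1 to 24.7 CPM in the others. Krt10 was 46.9 CPM in CD+DHT animal 9, against 23.2 to 29.7 CPM, and Neto2 was 27.1 CPM in CD+DHT animal 8, against 8.66 to 10.6 CPM.

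Among the library measures, the summed oocyte markers (median over oocytes) were 45907 CPM in CD+DHT animal 6, where the other 4 lay at 24279 to 27683 CPM. They were 19581 CPM in HFHS+Veh animal 10, where the others lay at 36704 to 37269 CPM. Summed red blood cell markers were 3.89 CPM in HFHS+Veh animal 5 and 0 in the other 3; with the others at 0, any level would pass this limit, so it says nothing here. Summed oviduct epithelium markers were 19.26 CPM in CD+DHT animal 7 and 0.809 to 6.098 CPM in the others.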

How the results depend on the processing

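Of 26 alternatives, 25 called 0 genes, as the edgeR fit did; DESeq2 called 1, Tmem255a. Genes at an unadjusted p under 0.05 numbered 125 in the edgeR fit, of 11962 tested. They numbered 715 with no filter on low counts and 46 at a mean of at least 10 CPM. Those settings test other numbers of genes, so their counts do not compare with 125 as shares. The count moved by over 1.5 times to 249 on oocyte means of log2(CPM + 1) with limma and 206 with genes detected as a covariate. It was 199 on thinned oocytes, where the filter also passes other genes. Moves of that size also followed from leaving out the oocytes with conflicting labels (463) and from taking the generation from the characteristics (432). Leaving out 1 animal gave 102 to 205, with moves over 1.5 times without CD+DHT animal 7 (205) and HFHS+Veh animal 10 (204). No oocyte of either lineage lay above the cumulus marker fence, so that alternative equals the reported fit.

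The 24 named genes were chosen by p in these data and lay far from the threshold, and the fits share most counts. That they kept their sign and their side of the threshold in 622 of 624 fits is thus a description. The exceptions were Tmem255a under DESeq2 (adjusted p = 0.00533, against 0.631 or more in the other alternatives) and Cdk5rap1, which turned to 0.25 with the generation from the characteristics. That setting, which takes in HFHS+Veh oocytes titled F3, also reversed Bmp15 (-0.25), Gtf2a1l (-0.19) and Pdha1 (-0.43). Nlrp5 turned to 0.35 without the oocytes of conflicting label, to 0.069 without CD+DHT animals 8 and 9 and HFHS+Veh animal 10, and to 0.29 without HFHS+Veh animal 10 alone (range without 1 animal -0.53 to 0.29). Dnmt3l turned to -0.051 on oocyte means. Cyp11a1 turned to 0.26 with limma-voom and to 2.79 without HFHS+Veh animal 5, its range without 1 animal being -3.04 to 2.79. Causes were not tested. Group medians moved by less than the spread between animals in 651 of 676 cases. Leaving out 1 animal, the difference between lineages (CD+DHT minus HFHS+Veh) ranged from -1173760 to 739498 for gene counts, from -0.0255 to 0.00521 percentage points for spike-in RNA, from -103 to 100.1 CPM for cumulus markers and from -1.74 to 1.96 CPM for immune markers. With means over oocytes in place of medians it turned to 617 CPM for oocyte markers and -0.498 CPM for immune markers; none of these passed. At 10 CPM or more the median half-width of the 95% interval was 0.57 (log2), which limits what these animals can show. No paired analysis was possible because the F2 animals of the 2 lineages carry different numbers.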
